A study of Mus musculus with 8 samples.

Results

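Long circular RNAs were taken as the circRNAs whose 2 ends lie at least 30000 bases apart on the mouse genome (build mm10), counting both end positions. Of 2163 circRNAs in the deposited count table, 330 met this rule and 1833 were shorter. The libraries came from proximal tubular cells isolated from the renal cortex of male C57BL/6 mice, and all carry the same treatment text, an intraperitoneal cisplatin dose of 30 mg/kg; cisplatin is a platinum anticancer drug that is toxic to proximal tubule cells. Groups of 2 libraries (a and b) were taken at 0, 24, 48 and 72 h, and whether the 0 h mice had been injected is not stated. The series calls the duplicates biological without naming separate animals, so the p-values reflect only the spread between these libraries, which may be technical. For single circRNAs and gene rows, the fits used here estimate that spread partly from all circRNAs or rows tested.

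A circRNA is made by back-splicing, in which the end of an exon is joined to the start of the same or an earlier exon, so that the RNA closes on itself. Having no free ends, such circles resist exonucleases and can outlast the linear transcripts of their host gene. The span measured here is the distance along the genome between the joined positions; introns inside it are commonly spliced out, so it is not the length of the circle. Back-splicing is known to be favoured by inverted repeats in the flanking introns and by RNA-binding proteins, and in highly expressed gene clusters a back-splice can also join exons of neighbouring genes on the same strand.

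Most long circles lay in 1 gene, but 3 of the 12 circles whose counts passed the test at some time joined a pair of neighbouring genes: Ugt3a1 with Ugt3a2, Cyp2j9 with Cyp2j5, and Ifi211 with Ifi205. The genes of the Cyp2j and Ifi pairs lie on the same strand. The promoters of these genes are shown because the first 2 circles fell together and the last rose; each window runs from 250 bases before to 50 bases after the gene's start, 5′ to 3′ on the gene's strand (RefSeq, GRCm38.p6). Of the 6 genes 5 matched, and Ugt3a2 is named only. Capitals mark matches on either strand to a half-site of the tubule and liver factor HNF1 (GTTAAT) or to TATAAA, the TATA-box letters. They also mark a core of the interferon-stimulated response element (ISRE: GAAA, any 2 bases, GAAA). A match was marked wherever it lay in the window, so TATAAA is not shown to act as a TATA box.
Ugt3a1, chr15:9279579-9279878, plus strand: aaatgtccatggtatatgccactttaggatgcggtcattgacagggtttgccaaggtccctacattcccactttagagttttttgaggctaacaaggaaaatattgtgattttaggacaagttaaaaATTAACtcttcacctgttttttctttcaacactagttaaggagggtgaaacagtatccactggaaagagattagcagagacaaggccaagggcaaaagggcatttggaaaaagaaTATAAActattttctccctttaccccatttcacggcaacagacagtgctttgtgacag
Cyp2j9, chr4:96591436-96591735, minus strand: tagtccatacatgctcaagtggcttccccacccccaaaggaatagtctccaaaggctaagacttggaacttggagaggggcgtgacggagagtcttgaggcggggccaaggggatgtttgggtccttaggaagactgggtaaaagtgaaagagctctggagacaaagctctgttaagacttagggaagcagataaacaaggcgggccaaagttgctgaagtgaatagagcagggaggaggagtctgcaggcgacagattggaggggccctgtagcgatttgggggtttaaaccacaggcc
Cyp2j5, chr4:96664070-96664369, minus strand: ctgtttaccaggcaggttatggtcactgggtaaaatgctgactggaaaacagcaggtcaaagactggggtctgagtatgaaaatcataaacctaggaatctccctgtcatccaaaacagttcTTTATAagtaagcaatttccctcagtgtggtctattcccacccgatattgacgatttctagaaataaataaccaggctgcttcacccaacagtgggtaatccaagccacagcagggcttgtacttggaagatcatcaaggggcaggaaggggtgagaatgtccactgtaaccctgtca
Ifi211, chr1:173912997-173913296, minus strand: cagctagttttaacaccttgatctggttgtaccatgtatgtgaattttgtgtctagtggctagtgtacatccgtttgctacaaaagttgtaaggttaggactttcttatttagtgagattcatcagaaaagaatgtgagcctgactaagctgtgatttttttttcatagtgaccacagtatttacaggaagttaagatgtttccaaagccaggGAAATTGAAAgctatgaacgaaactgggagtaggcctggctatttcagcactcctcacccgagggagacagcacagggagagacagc
Ifi205, chr1:174031706-174032005, minus strand: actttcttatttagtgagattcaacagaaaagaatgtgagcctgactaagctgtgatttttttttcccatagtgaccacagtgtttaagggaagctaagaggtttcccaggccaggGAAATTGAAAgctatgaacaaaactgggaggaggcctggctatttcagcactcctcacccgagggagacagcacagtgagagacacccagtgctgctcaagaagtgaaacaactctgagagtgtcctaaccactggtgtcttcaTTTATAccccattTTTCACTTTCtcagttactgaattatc
Among 32851 promoters of the same length, GTTAAT was found in 7.10%, the ISRE core in 3.44% and TATAAA in 13.6%. The Ugt3a1 window held GTTAAT at bases 128 to 133 on the reverse strand. It held TATAAA at bases 243 to 248, just before the gene's start. The Cyp2j5 window held TATAAA on the reverse strand at bases 123 to 128, and the Cyp2j9 window held none of these letters. Both Ifi windows held the ISRE core, once in Ifi211 (bases 214 to 223). In Ifi205 it lay at bases 117 to 126 and, on the reverse strand, at bases 274 to 283. The Ifi205 window also held TATAAA on the reverse strand at bases 261 to 266, after the gene's start. No matches overlapped. The Ifi211 and Ifi205 windows shared a run of 45 identical bases, while the longest run shared by any other pair was 11 bases (Cyp2j9 and Cyp2j5). A site of the tubule and liver factor HNF4A, searched as CAAAGTCCA and found in 0.475% of promoters, matched in none of the 5. The windows of Cyp2j9 and Ifi211 lie inside the span of their circle, and those of Ugt3a1, Cyp2j5 and Ifi205 lie outside it.

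The long circRNAs spanned from 30000 to 179103 bases, with a median of 48794 bases against 5597 for the shorter ones. There were 106 from 30000 to under 40000 bases, 116 from there to under 60000, 76 from there to under 100000, and 32 of 100000 or more. Of the 330, 258 (78.2%) lay inside exactly 1 protein-coding gene, their host, compared with 1614 of 1833 shorter circRNAs (88.1%). Another 41 (12.4%) had no end in a protein-coding gene, 17 (5.15%) had 1 end in a gene, and 14 (4.24%) had their ends in different genes. For the shorter circRNAs the last class held 8 (0.436%). In 11 of the 14 long circles that joined genes, the 2 gene symbols had the same stem. The host genes of long circles had a median length of 238338 bases, against 110875 for the hosts of shorter ones, and a long circle spanned a median of 22.7% of its gene, against 4.66%. Of the long circles 222 (67.3%) shared an end position with another circRNA, compared with 602 shorter ones (32.8%). Host length, the share of the gene spanned and shared ends are related to span itself, so these are descriptions of the set.

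The counts of long circles were low and uneven. A count is the number of reads across 1 back-splice, so circles of different length can be set side by side. Summed over the 8 libraries, the median long circle had 12.5 counts and the median shorter one 20. Totals of at most 10 counts were found in 154 long circles (46.7%) and 681 shorter ones (37.2%). By span, the median total was 20.5 counts in the class up to 40000 bases, 12.5 up to 60000, 8 up to 100000 and 9 beyond that. Counts in all 8 libraries were present for 112 long circles (33.9%) and 779 shorter ones (42.5%), and counts in at most 3 libraries for 108 long circles. The 2 most abundant circles, Ugt3a1/Ugt3a2 and Cyp2j9/Cyp2j5, held 21.7% of the 17038 counts of all long circles, and the 50 most abundant held 69.9%. This rank is over all times together: the Dtnb circle had more counts than Cyp2j9/Cyp2j5 in both 48 h libraries, and more than either in both 72 h libraries.

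**Figure D1:**
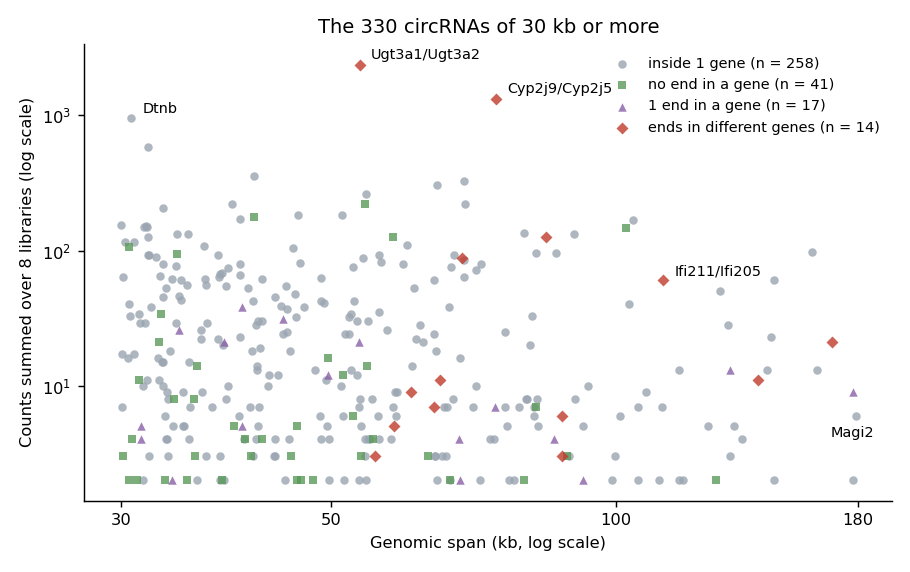
Genomic span in kb (log scale) against the count summed over 8 libraries (log scale), 1 point for each of the 330 long circRNAs, coloured by where its ends lie. The Ugt3a1/Ugt3a2 circle (2373 counts) and the Cyp2j9/Cyp2j5 circle (1332 counts) stand above all circles inside 1 gene, of which the highest, in Dtnb, had 952.

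The 258 circles with a host came from 169 genes, of which 123 gave 1 long circle, 46 at least 2 and 10 at least 4. Magi2, a scaffold protein of cell junctions that is known from the podocyte, had the most, with 8 long circles and 66 counts in all. It was followed by Rims2, a scaffold of synaptic release sites (7 circles, 29 counts), and Asxl3, a Polycomb-associated chromatin protein (6 circles, 140 counts). Cep112, a centrosomal protein, and Rere, a nuclear receptor corepressor, had 5 each, with 44 and 370 counts. Those with 4 were Glcci1, Kcnh5, Pkhd1, Rfx3 and Sh2d4b, with 79, 250, 699, 25 and 82 counts. All 4 circles of Glcci1, a glucocorticoid-induced gene, shared 1 end at chr6:8537817, and their other ends lay 35482 to 53849 bases away. All 4 circles of Kcnh5, a voltage-gated potassium channel, shared 1 end at chr12:75154281, and their spans ran from 40091 to 177811 bases. In Magi2, by contrast, the 8 circles used 8 different starts and 6 ends over a gene of 1485406 bases. Circles that share an end share part of their sequence, so they are not independent of each other.

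**Figure D2:**
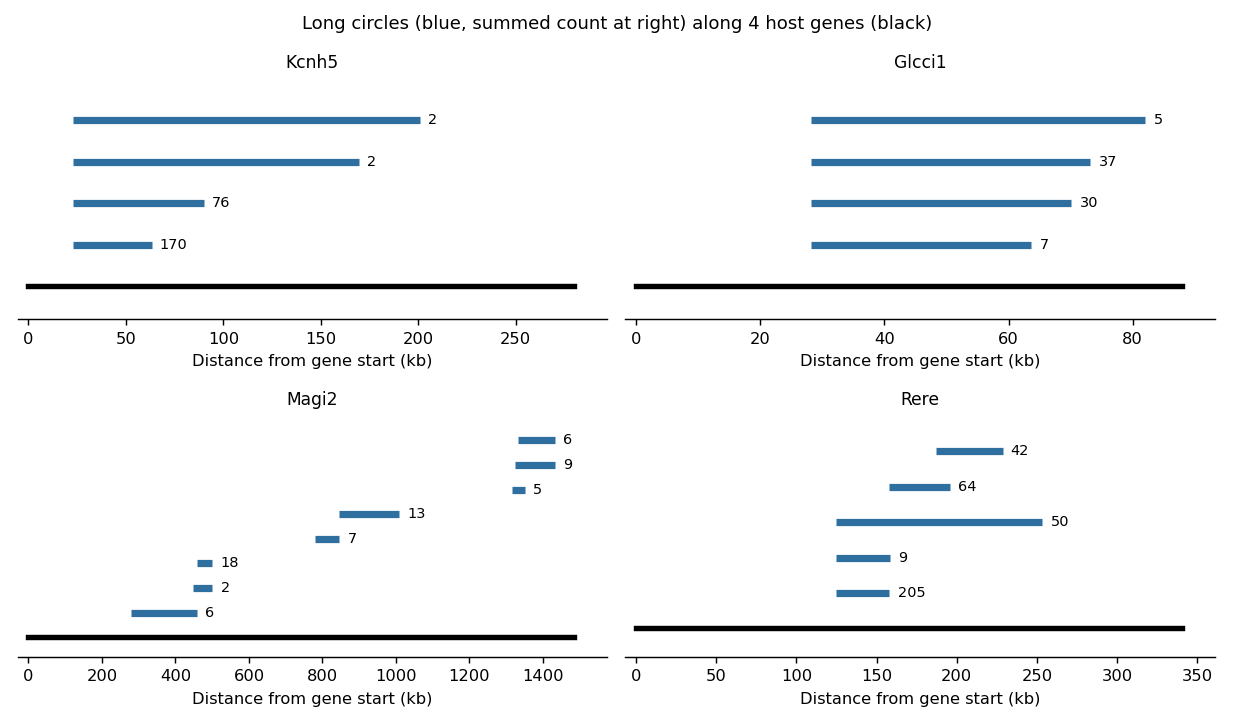
Long circles (blue bars, labelled with the count summed over 8 libraries) along 4 of the hosts with at least 4 long circles (black bar, the RefSeq gene), by distance from the gene start in kb. The circles of Kcnh5 and of Glcci1 all begin at 1 position, whereas the 8 of Magi2 begin at 8 different positions and several of them overlap.

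Some of these hosts had a gene row near 0. The Kcnh5 circles had 28, 29, 34, 31, 35, 34, 27 and 32 counts in libraries 0 h a, 0 h b, 24 h a, 24 h b, 48 h a, 48 h b, 72 h a and 72 h b, the order used throughout, while the Kcnh5 gene row lay between 0.252 and 0.915 FPKM (fragments scaled by gene length and by mapped depth). These counts were nearly flat. The Asxl3 circles had 8, 34, 34, 19, 13, 20, 5 and 7 counts with a gene row between 0.130 and 0.565 FPKM, and the 2 libraries at 0 h already differed. The Rere circles had 31, 41, 34, 36, 50, 53, 60 and 65 counts at 15.8 to 30.3 FPKM. The Sh2d4b circles had 5, 8, 7, 4, 10, 10, 16 and 22 counts at 1.26 to 3.48 FPKM, with both the circles and the row highest at 72 h. The Pkhd1 circles had 83, 104, 73, 118, 125, 70, 59 and 67 counts, and the libraries of the 24 and 48 h pairs differed by more than the means of 0 and 72 h did.

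The libraries held 13603 to 21024 circRNA counts each, and these totals did not separate by time (exact permutation p = 0.562). The defining genes of the labelled tissue were present: the summed FPKM of 8 proximal tubule markers was 5951 to 6439 at 0 h, and it was 829 to 837 at 72 h, where all 8 markers were lower by limma with Benjamini-Hochberg adjustment (32.4% of all gene rows were lower at 72 h). The sums of 3 thick limb markers (240 to 246 and 121 in FPKM), 3 distal convoluted tubule markers (272 to 294 and 49.99 to 52.7) and 2 red cell markers (373 to 381 and 4.26 to 4.81) were also lower at 72 h than at 0 h. Those of 3 fibroblast markers (22.6 to 25.4 and 85.2 to 89.5) and 4 endothelial markers (40.3 to 42.7 and 76.2 to 81.4) were higher. So was that of 4 podocyte markers (21.9 to 25.5 and 46.1 to 47.3). For 5 collecting duct markers the sum was higher (80.4 to 92.8 and 139 to 153), mostly from Aqp2 (37.2 and 29.2, then 91.2 and 102). By limma 1 of these 5 was higher at 72 h and 2, Slc4a1 and Foxi1, were lower. Of all rows 37.6% were higher and 32.4% lower. The sum of 6 leukocyte markers, 5 of them with a row, was 3.71 to 5.16 at 0 h and 54.9 to 61.4 at 72 h, most of it from the neutrophil genes S100a8 (32.8 and 30.9 at 72 h) and S100a9 (19.5 and 17.7). Ptprc went from 2.60 and 3.29 to 7.91 and 5.62, Adgre1 overlapped between the times, and Cd3e stayed at or below 0.183. In bulk RNA, fewer cells of a type and less RNA per cell cannot be told apart, and the part of these shifts in the circRNA results was not tested.

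The share of circRNA counts that fell in long circles declined with time. It was 16.0% and 15.9% for the 0 h pair, then 12.7% and 12.9% for the 24 h pair. After 48 h it stood at 11.7% and 11.2%, and after 72 h it had reached 9.93% and 10.3%. Each time point lay below the one before it with no overlap between groups (exact permutation test over all ways to form 4 pairs, two-sided, p = 0.00952, the smallest this design can give; Benjamini-Hochberg 0.0444 over 14 such comparisons). The 95% exact binomial intervals of these shares reached at most 0.619 percentage points from the value, and they cover counting error only. Most of the fall lay in a pair of circles. The Ugt3a1/Ugt3a2 and Cyp2j9/Cyp2j5 circles together held 6.32% and 6.36% of all circRNA counts at 0 h and 2.80% and 2.81% in the 24 h pair. They held 1.35% and 1.5% after 48 h, then 0.533% and 0.647% in the 72 h libraries (exact permutation p = 0.00952). Of the long counts they made up 39.6% and 39.9% at 0 h, falling to 5.37% and 6.29% at 72 h. The other 328 long circles held between 9.40% and 10.3% of all counts in every library, and their groups overlapped (exact permutation p = 0.286). With the pair left out of the total as well, the long share was lower at 72 h than at 0 h by a difference of -0.673 percentage points (exact permutation p = 0.181). The pair was picked by its mean count over these same libraries, to which its high 0 h counts add most. The tests of the pair and of the rest therefore describe the split and are not independent support for it.

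**Figure D3:**
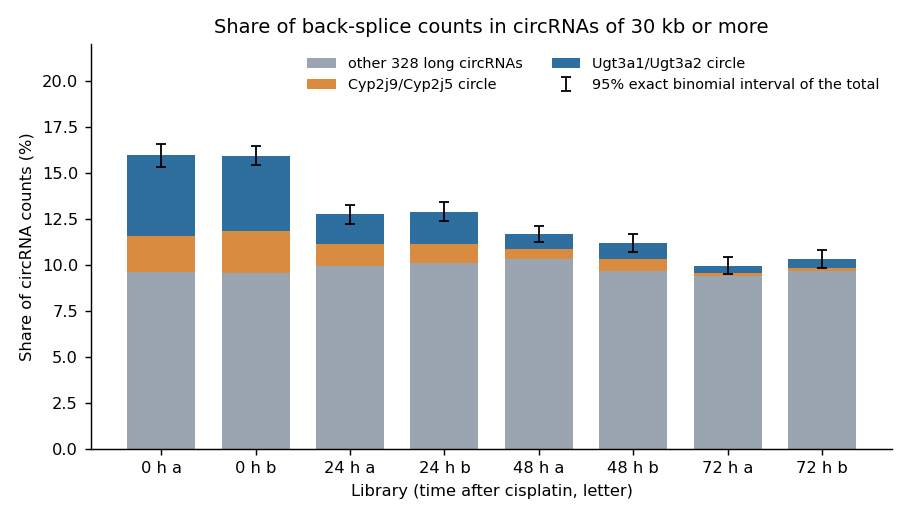
Share of circRNA counts (%) in long circles in each of the 8 libraries, stacked into the Ugt3a1/Ugt3a2 circle, the Cyp2j9/Cyp2j5 circle and the other 328; error bars are 95% exact binomial intervals of the whole share. The total falls from 16.0% to about 10% while the grey part stays between 9.40% and 10.3%.

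Split by where the ends lie, only 1 class separated all 4 times. Circles inside 1 gene held 8.57% and 8.62% of all counts at 0 h and 8.01% and 8.55% at 72 h, with 8.39% to 8.89% between (exact permutation p = 0.352). Taken instead as a share of the counts of circRNAs inside 1 gene, they held 9.67% and 9.73% at 0 h, and 8.48% and 9.01% in the 72 h pair, a difference of -0.956 percentage points (exact permutation p = 0.0476, unadjusted). Circles that join genes went from 6.56% and 6.55% at 0 h to 0.962% and 0.886% at 72 h (p = 0.00952 by the same exact test). Without the 2 most abundant, the rest of that class held 0.193% to 0.429% (exact permutation p = 0.324). Circles with no end in a gene held 0.647% and 0.600% at 0 h. Their share was highest in the 48 h pair, with 1.02% and 0.903%; the 24 h pair had 0.833% and 0.790%, the 72 h pair 0.827% and 0.718% (exact permutation p = 0.0190, Benjamini-Hochberg 0.0667). Circles of 100000 bases or more held 0.404% and 0.473% at 0 h, then 0.680% and 0.778% in the 24 h pair, 0.723% and 0.657% in the 48 h pair, 0.613% and 0.498% in the 72 h pair; both 0 h libraries were the lowest, but after adjustment the test did not pass (exact permutation p = 0.0286, Benjamini-Hochberg 0.0667).

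Within the same genes, the balance between long and shorter circles did not separate by time. There were 120 hosts with both kinds, holding 191 long and 250 shorter circles. The long ones took 28.2% and 29.7% of these hosts' counts at 0 h, 27.3% and 29.6% in the 24 h pair, 29.0% and 28.5% in the 48 h pair, 27.5% and 29.9% in the 72 h pair (exact permutation p = 0.971). The libraries of a pair differed by more than the means of any times did. The number of long circles detected was also similar: 212, 222, 205, 227, 232, 219, 214 and 206 in the 8 libraries (exact permutation p = 0.562), and 198 to 212 when every library was thinned to the smallest total (p = 0.514, same exact test). As a share of all circRNAs detected, long circles made up 14.5% and 14.3% at 0 h and 13.7% and 13.3% at 72 h (exact permutation p = 0.0286, Benjamini-Hochberg 0.0667).

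Single circles were tested with edgeR's quasi-likelihood test and Benjamini-Hochberg adjustment over all 1574 circRNAs with counts above 0 in at least 4 libraries; 222 long circles entered it. Normalised counts are counts scaled to the mean library by total and TMM factor. At 24 h against 0 h, 4 long circles rose and 3 fell, where 1.78% of all tested circRNAs were called, 1.08% higher and 0.699% lower. At 48 h 3 rose and 2 fell, beside 1.27% of all called, 0.826% higher and 0.445% lower. At 72 h 2 rose and 6 fell, beside 1.33% of all called, 0.381% higher and 0.953% lower. The 20 calls belong to 12 circles, 7 of them inside 1 gene. The median log2 fold change of the 222 was -0.10 at 24 h, -0.07 at 48 h and -0.17 at 72 h, beside -0.08, -0.04 and 0.00 for all tested circRNAs. Normalised counts of long circles lay wholly above both 0 h libraries in 44 cases at 24 h, 38 at 48 h and 42 at 72 h, where 18.4%, 20.2% and 24.1% of all tested circRNAs did so. They lay wholly below in 43, 45 and 58 cases, with backgrounds of 19.4%, 18.0% and 19.4%. All comparisons with 0 h share the 2 control libraries.

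**Figure D4:**
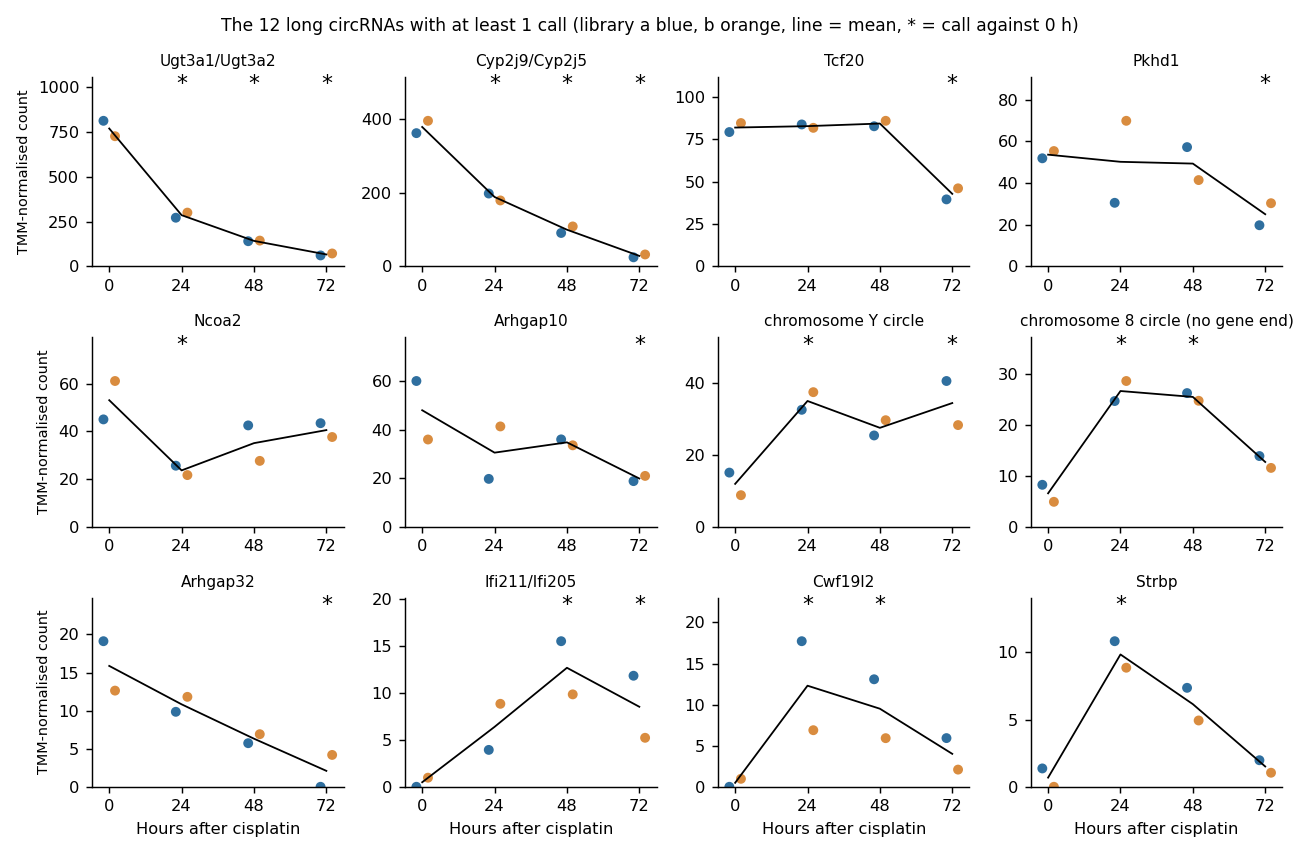
TMM-normalised counts of the 12 long circles with at least 1 call, by hours after cisplatin; blue points are library a, orange points library b, the line joins the means and asterisks mark calls against 0 h (edgeR, adjusted p under 0.05). The 2 top left panels fall at every time, and the panels of circles that rose start at 0 to 15 normalised counts.

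The 2 most abundant long circles were lower than at 0 h at each later time. The circle from Ugt3a1 to Ugt3a2, which encode UDP-glycosyltransferases that conjugate small molecules, spans 53629 bases (chr15:9311749-9365377). It had 595, 748, 276, 305, 172, 146, 62 and 69 counts, a normalised mean of 769 ± 60.7 at 0 h and 66.7 ± 7.72 at 72 h (SD, n = 2). No time point overlapped another. Its log2 fold change against 0 h was -1.43 ± 0.145 (SE) at 24 h, -2.43 ± 0.153 at 48 h and -3.53 ± 0.168 at 72 h, with edgeR adjusted p of 1.6e-19, 7.7e-53 and 1.1e-91. The circle from Cyp2j9 to Cyp2j5, cytochromes P450 of the family that makes epoxides of arachidonic acid, spans 74776 bases (chr4:96583977-96658752). It had 265, 407, 201, 182, 111, 110, 25 and 31 counts, or 379 ± 23.7 normalised at 0 h and 28.6 ± 5.46 at 72 h (SD, n = 2). Its log2 fold change was -1.01 ± 0.165 at 24 h, -1.93 ± 0.174 at 48 h and -3.73 ± 0.208 at 72 h (edgeR adjusted p 3.1e-07, 2.0e-25 and 1.5e-67). These 6 calls held in all 13 alternative fits.

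The gene rows around these circles fell as well. The row named Ugt3a2 (ENSMUSG00000049152, chr15:9279776-9431104) also covers Ugt3a1, so it holds both genes together. It stood at 882, 1036, 404, 396, 215, 208, 82.1 and 77.6 FPKM, a limma log2 fold change of -1.25, -2.17 and -3.57 at the 3 times. The circle minus this row differed from 0 h by -0.17, -0.25 and 0.06 (SE 0.595; limma adjusted p 0.931, 0.920 and 0.989). The row named Cyp2j9 (ENSMUSG00000015224, chr4:96002444-96664198) covers Cyp2j5 as well and stood at 1115, 1136, 624, 585, 349, 336, 193 and 183 FPKM, a log2 fold change of -0.90, -1.71 and -2.57. It reaches far past the circle, so its fall cannot be assigned to these 2 genes alone. At 72 h the Cyp2j9/Cyp2j5 circle was lower than this row by a further -1.12 ± 0.612 (SE), which did not pass (limma adjusted p 0.466). The SEs of these differences draw on the spread of all circRNAs in the fit. Fitted separately, the change at 72 h had an SE of 0.208 for this circle (edgeR) and 0.0629 for its row (limma). These 2 SEs also draw on all circRNAs or rows in their fits, but they are smaller than that of the difference. The test therefore cannot show that the circle fell only as far as its row. The summed proximal tubule markers fell over the same times, as given above. Each pair of genes belongs to 1 family, and no source used here says how reads that match several similar copies were placed, so the exact ends of these circles are uncertain.

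Another 12 circles joined genes. Of all 14 joiners 11 entered the test, without Ifi204/Ifi211, Gbp10/Gbp6 and Rragb/Klf8, which had counts in fewer than 4 libraries. Besides the 2 circles above, 1 was called, at 48 and 72 h, when 1.27% and 1.33% of all tested circRNAs were called. The Ifi211 to Ifi205 circle (chr1:173905473-174017656, 112184 bases) joins interferon-inducible DNA-sensing proteins of the p200 family, and Ifi202b and Ifi203 lie within it. It had 0, 1, 4, 9, 19, 10, 12 and 5 counts, so that every library after 0 h was above both at 0 h. Per unit of depth it was 22.8 times the 0 h level at 48 h, with a 95% counting interval of 3.79 to 933, and 15.2 times (2.38 to 636) at 72 h (edgeR adjusted p 0.00299 and 0.0477). The 48 h call did not pass with DESeq2 (adjusted p 0.232) or when 0 h a (0.144), 0 h b (0.0773) or 48 h a (0.132) was left out. The 72 h call was lost in 7 alternatives, with adjusted p from 0.0515 to 0.668; the libraries whose removal ended it were 0 h a, 0 h b, 48 h a, 48 h b and 72 h a. The row that holds both ends, named Ifi211 (ENSMUSG00000026536, chr1:173723282-174031890), rose from 5.49 and 4.62 FPKM at 0 h to 17.1 and 17.0 at 24 h and 14.5 and 16.6 at 72 h, a limma log2 fold change of 1.58 at 24 h and 1.45 at 72 h. It also covers Ifi202b and Ifi203. Among the other joiners the most abundant were those from Cyp4f16 to Cyp4f37, fatty acid hydroxylases of the cytochrome P450 family (14, 12, 6, 13, 19, 17, 31 and 14 counts), and from H2-T22 to H2-T-ps of the MHC class I region (10, 12, 13, 9, 15, 5, 14 and 10 counts); neither was called. The Slc22a29 to Slc22a30 circle, between organic anion transporter genes, had 4, 3, 7, 2, 2, 3, 0 and 0 counts, and its 0 counts at 72 h allow up to 3 counts in each library. Others joined Trim30a with Trim30d, Naip5 with Naip6, Phf11b with a region shared by Gm45935 and Phf11c, Gbp10 with Gbp6, and Ifi204 with Ifi211, each with 3 to 11 counts in all. The 3 joiners whose gene symbols differ in stem (LOC115490200 with Zfp932, Zfp994 with Gm7072, Rragb with Klf8) had 11, 6 and 3 counts.

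Of the circles that fell, 5 lay inside 1 gene, and 4 of these were called at 72 h and not before. Tcf20 encodes a transcriptional coregulator, and its circle (chr15:82825231-82857284) had 58, 87, 85, 83, 101, 87, 40 and 44 counts. Normalised, it stayed between 79.2 and 85.8 up to 48 h and was 39.5 and 46.0 at 72 h, a log2 fold change of -0.94 ± 0.25 (SE; edgeR adjusted p 0.0167). The call was lost without TMM scaling (adjusted p 0.0726) and without 0 h b (0.183), 72 h a (0.335) or 72 h b (0.108). The Tcf20 row went from 26.2 and 26.9 FPKM at 0 h to 19.8 and 21.6 at 72 h.

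Pkhd1 encodes fibrocystin, a protein of the primary cilium of tubule cells. Its most abundant long circle (chr1:20198018-20239438) had 38, 57, 31, 71, 70, 42, 20 and 29 counts, and the fold change at 72 h was -1.10 ± 0.311 (log2, SE; edgeR adjusted p 0.0326). The 24 h libraries spread on both sides of those at 0 h, and only the 72 h pair lay below. This call was lost with DESeq2 (0.0888), without TMM (0.0874), and without 0 h a (0.0969), 0 h b (0.232), 48 h b (0.0510), 72 h a (0.548) or 72 h b (0.0540). Arhgap10 and Arhgap32 encode GTPase-activating proteins, and their rows and that of Pkhd1 were called lower at 24, 48 and 72 h. The limma log2 fold changes at 72 h were -0.37 (Pkhd1), -0.40 (Arhgap10) and -0.62 (Arhgap32), with adjusted p 0.00183, 0.00392 and 0.00444. Of all rows, 32.4% were lower at 72 h. The Arhgap10 circle (chr8:77310731-77365160) had 44, 37, 20, 42, 44, 34, 19 and 20 counts and fell by 1.24 on the log2 scale at 72 h (edgeR adjusted p 0.0321); DESeq2 (0.0638), no TMM (0.0813), and leaving out 0 h a (0.646), 72 h a (0.335) or 72 h b (0.190) ended the call. The Arhgap32 circle (chr9:32170090-32208265) had 14, 13, 10, 12, 7, 7, 0 and 4 counts and fell by 2.86 on the log2 scale at 72 h (edgeR adjusted p 0.0156). Per unit of depth it was at 0.133 of the 0 h level, with a 95% counting interval of 0.0337 to 0.381; the fitted value ran from -6.96 to -1.90 over the alternatives, and the call was lost without 0 h a (0.298) or 72 h a (0.552).

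The Ncoa2 circle was called at 24 h and not later. Ncoa2 is a coactivator of steroid receptors, and its circle (chr1:13221307-13286025) had 33, 63, 26, 22, 52, 28, 44 and 36 counts. The 24 h libraries were the lowest, at a log2 fold change of -1.18 ± 0.321 (SE; edgeR adjusted p 0.0181), and the normalised counts of later libraries lay between them and 0 h. DESeq2 (0.0998) and leaving out 0 h b (0.455), 24 h a (0.0605) or 24 h b (0.128) ended this call. The row named Ncoa2 reaches far past the gene (chr1:13139032-16336352), so its fall from 338 and 357 FPKM to 73.0 and 75.6 at 72 h cannot be assigned to Ncoa2.

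Among the circles that rose besides Ifi211/Ifi205, 2 had no end in a protein-coding gene. The chromosome Y circle (chrY:90739142-90793417) had 11, 9, 33, 38, 31, 30, 41 and 27 counts, and each later library was above both at 0 h. Its log2 fold change was 1.60 ± 0.414 at 24 h, 1.25 ± 0.423 at 48 h and 1.58 ± 0.416 at 72 h (SE; edgeR adjusted p 0.00992, 0.155 and 0.0156). The 24 h call was lost without 0 h b (0.408) or 24 h b (0.0682), and the 72 h call without 0 h b (0.457) or 72 h a (0.515). A row named Gm47283, a predicted gene, covers 1 of its ends and went from 5.17 and 2.55 FPKM at 0 h to 11.8 to 16.9 afterwards. The chromosome 8 circle (chr8:19682275-19784850) had 6, 5, 25, 29, 32, 25, 14 and 11 counts, highest at 24 and 48 h. It rose by a log2 of 2.06 ± 0.515 at 24 h and 2.0 ± 0.513 at 48 h (SE; edgeR adjusted p 0.00636 and 0.00998), and at 72 h it stood at 1.0 ± 0.578, which did not pass (0.529). Without 0 h b neither call passed (0.316 and 0.498); the 48 h call was also lost with DESeq2 (0.0791) and without 48 h a (0.129) or 48 h b (0.0585). The row that holds both ends, named Gm6483, had 7.62 and 12.6 FPKM at 0 h, then 29.0 and 23.3 in the 24 h pair, and 29.1 and 32.0 in the 48 h pair. In the 72 h pair, where the circle was not called, the row still had 23.0 and 29.0 FPKM (limma adjusted p 0.00300). This row (chr8:19682054-20590106) reaches far past the circle.

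The other 2 circles that rose, in Cwf19l2 and Strbp, had 1 count at 0 h. Cwf19l2 is related to a yeast protein found with the spliceosome, and its circle (chr9:3441055-3477962) had 0, 1, 18, 7, 16, 6, 6 and 2 counts. Relative to depth, this was 21.7 times the 0 h level at 24 h (95% counting interval 3.55 to 890) and 17.3 times at 48 h (2.80 to 715), with edgeR adjusted p of 0.00463 and 0.0223. Leaving out 0 h a (0.151), 0 h b (0.0928) or 24 h a (0.296) ended the 24 h call, and DESeq2 (0.336) or leaving out 0 h a (0.297), 0 h b (0.193) or 48 h a (0.577) ended that at 48 h. The Cwf19l2 row stood at 3.39 and 3.41 FPKM at 0 h and 5.85 and 5.29 at 24 h. Strbp binds double-stranded RNA, and its circle (chr2:37580673-37647285) had 1, 0, 11, 9, 9, 5, 2 and 1 counts, 17.3 times the 0 h level at 24 h (2.77 to 719; edgeR adjusted p 0.0466). That call was lost without a filter on low counts (0.0609) and without either library of 0 h (a 0.0963, b 0.555), of 24 h (a 0.188, b 0.0534) or of 48 h (a 0.0804, b 0.0664), while the Strbp row stayed between 11.5 and 14.2 FPKM.

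Several of the most abundant long circles were not called at any time. The top one inside a gene, from Dtnb, which encodes beta-dystrobrevin of the dystrophin complex (chr12:3617606-3648389), had 97, 100, 111, 106, 127, 117, 139 and 155 counts. Its normalised count was highest at 72 h, at 137 and 162 beside 132 and 97.1 at 0 h (log2 fold change 0.40 ± 0.194, SE; edgeR adjusted p 0.461). A second Dtnb circle that shares its start (chr12:3617606-3686862) had 25, 31, 22, 32, 23, 20, 24 and 43 counts. The circle of Stau2, a double-stranded RNA-binding protein of RNA transport (chr1:16440323-16509408), had 31, 52, 30, 43, 48, 39, 40 and 45 counts. That of Bckdhb, a subunit of the enzyme that breaks down branched-chain keto acids (chr9:83952524-83991822), had 19, 12, 25, 40, 51, 24, 25 and 25, and the largest Rere circle (chr4:150406196-150439468) had 19, 26, 20, 20, 24, 24, 35 and 37. Across these 5 circles the edgeR adjusted p at 72 h ran from 0.461 to 0.940.

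The extremes of span were rare circles. The longest was in Magi2 (chr5:19499667-19678769, 179103 bases), with 5 counts in 24 h a, 1 in 72 h a and none elsewhere. The next, of 177827 bases, ended in Pde4d, a cAMP phosphodiesterase (chr13:108476439-108654265), and had 9 counts in 4 libraries. The third, in Kcnh5 (177811 bases), had 1 count in each 48 h library. At the threshold, the circle just inside lay in Arhgap26, with a span of 30000 bases and a total of 154 counts. The 3 just outside lay in Nrxn3, Myo3a and Ubn2, with 29993, 29773 and 29768 bases and totals of 2, 15 and 23 counts.

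Set against the gene row of its host, no long circle passed the test. The difference log2(normalised count + 1) minus log2(FPKM + 1) was tested for 150 long circles whose host row reached 1 FPKM in 2 libraries. By limma with Benjamini-Hochberg adjustment 0 of 150 passed at 24, 48 or 72 h, where 0.245%, 0.0817% and 0.245% of all 1224 circRNAs did; at an unadjusted p under 0.05 there were 20 (13.3%), 16 (10.7%) and 15 (10%), beside 14.4%, 13.6% and 12.1% of all. The smallest adjusted p was 0.149 (Strbp, 24 h), 0.219 (a circle of Slc16a7, a monocarboxylate transporter, 48 h) and 0.169 (a circle of Gphn, the scaffold gephyrin, 72 h). The median difference of the 150 was 0.14, 0.15 and -0.10, beside 0.18, 0.19 and 0.04 for all tested circRNAs. When circles outside any single gene were added with the row that holds both their ends, 0 of 171 passed. For the 21 added circles the SE of the difference ran from 0.536 to 0.895 on the log2 scale. With SEs of this size moderate departures could not pass, so the 0 calls do not show that circles followed their rows.

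**Figure D5:**
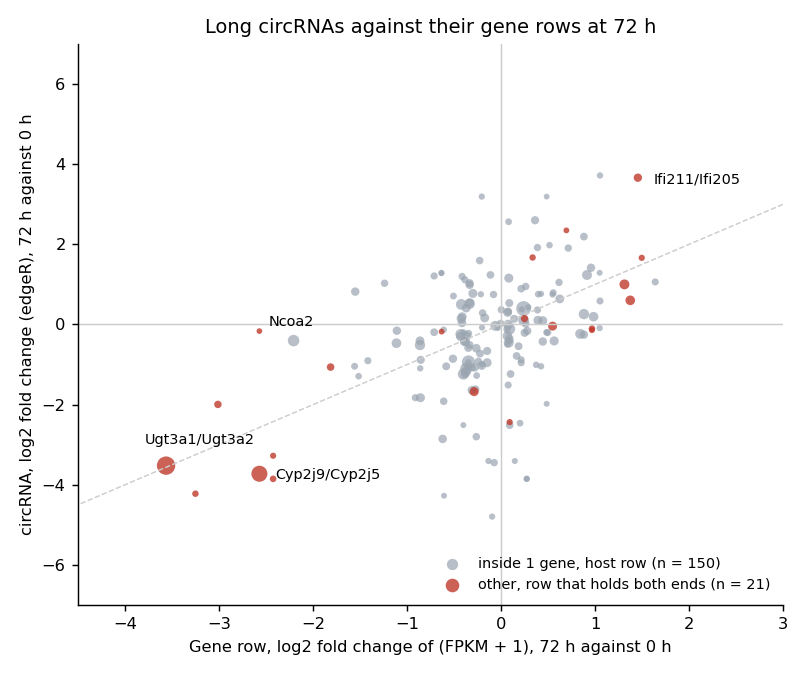
Log2 fold change at 72 h against 0 h of each long circle (edgeR, vertical) and of its gene row (limma on FPKM + 1, horizontal); point area grows with the count, grey points are the 150 circles with a host row and red points the 21 set against the row that holds both ends. The dashed line marks equal change; the Ugt3a1/Ugt3a2 circle lies on it at -3.57 and -3.53, and circles with few counts scatter widely above and below.

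Rows of host genes were called lower more often than higher at each time. Of 160 rows of hosts with a long circle, 126 were tested, and by limma 15 were higher (11.9%) and 66 lower (52.4%) at 24 h, where 25.8% of all 10757 tested rows were higher and 40.0% lower. The counts were 18 higher (14.3%), 60 lower (47.6%) at 48 h, beside 28.5% and 42.1% of all rows. They were 30 higher (23.8%), 50 lower (39.7%) at 72 h, beside 37.6% and 32.4% of all rows. In either direction 65.8%, 70.5% and 70.0% of all rows were called. The median log2 fold change of the host rows was -0.33, -0.28 and -0.11, beside -0.12, -0.13 and 0.07 for all rows. Rere, for example, stood at 30.3 and 30.0 FPKM at 0 h and 19.1 and 15.8 at 24 h, while its largest circle had 25.9 and 25.2 normalised counts at 0 h and 19.7 in both 24 h libraries.

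Genes that make or remove circRNAs moved in both directions. Of 39 such genes 38 had a row and 35 were tested; by limma 12 were higher and 13 lower at 24 h, 13 higher and 12 lower at 48 h, then 16 higher and 5 lower at 72 h, with median log2 fold changes of -0.10, 0.10 and 0.23. As shares these were 34.3% higher and 37.1% lower at 24 h, 37.1% and 34.3% at 48 h, then 45.7% and 14.3% at 72 h, to be read against the shares of all rows given above. The row named Exosc10, a nuclease of the nuclear exosome, went from 55.7 and 60.4 FPKM at 0 h to 28.5 and 27.8 at 72 h. This row runs over chr4:148433336-148582436 and may cover more than 1 gene, so its fall cannot be assigned to Exosc10 alone. Dbr1, which opens intron lariats, went from 4.33 and 4.48 to 9.49 and 10.1 FPKM at 24 h. Sf3b1, a core splicing factor, went from 36.3 and 36.0 to 55.4 and 56.9 FPKM at 24 h. Oas1a, a sensor of double-stranded RNA that activates RNase L, went from 3.91 and 3.48 to 15.1 and 17.7 FPKM at 72 h. Mbnl1, a splicing regulator known to promote a circle of its own gene, went from 20.8 and 20.7 to 37.8 and 38.3 FPKM at 72 h, and Ddx39, an RNA helicase, from 13.1 in both to 21.6 and 24.0. In these 6 genes the libraries named did not overlap with those at 0 h, and the limma adjusted p was between 3.0e-07 and 6.1e-05.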

How the data were processed

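Back-splice counts and FPKM were deposited by the authors for the same 8 libraries. The counts are whole numbers per pair of positions, and the FPKM are 1 value per gene row, named so per the file headers. Per the submitters' processing notes the tools included Bowtie 0.12.2, TopHat2 and Cufflinks, with build mm10; no source used here names the circRNA caller. Ribosomal RNA was removed and libraries were made with a kit named as one for small RNA, per the labels. Another 8 columns of the circRNA table were not used here. Positions are as deposited.

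Columns carry letters, so each was assigned to its time group only. Counts were tested with edgeR 4.0.16 (TMM, robust quasi-likelihood) in 1 fit of all libraries over 1574 circRNAs, and FPKM and differences from host rows with limma 3.58.1 (trend, robust, pseudocount 1) in R 4.3.3, with Benjamini-Hochberg adjustment and a threshold of 0.05; DESeq2 1.42.0 was an alternative. Depth is unknown for the linear libraries, since FPKM hold no counts. Single values used exact permutation tests, two-sided. Host genes are RefSeq spans (GRCm38.p6) and host rows were matched by symbol; many rows cover several genes. On counts simulated for the 24 h comparison, edgeR called 14 of 46 circRNAs changed 0.25-fold, 2 of 54 changed 0.5-fold, 6 of 49 changed 2-fold, 23 of 44 changed 4-fold and 0 of 1318 unchanged. The simulation gave every circRNA the same dispersion, so it does not show how often circRNAs with a wider spread are called falsely.

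Named circles are the 12 with the highest mean, called circles with libraries beyond both at 0 h (up to 8 each way), the 3 longest, 3 on each side of the threshold and hosts with at least 4; of those just inside the threshold, 2 are not reported here. The members, lists and tests were chosen with earlier results of these data known.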

Additional observations from a re-analysis of the deposited data

How the results depend on the processing

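The fall in the long share was -5.83 percentage points (72 h minus 0 h). It kept an exact permutation p of 0.00952 at a minimum span of 20000 or 50000 bases (-5.32 and -5.81). The 2 circles that hold most of it span 53629 and 74776 bases, so they stayed in at either limit. These 2 settings therefore could not test their part. Leaving out 1 library moved the fall between -6.01 and -5.65. Without both of the most abundant circles, an alternative added after seeing the data, it was -0.673 (exact permutation p = 0.181), and among circRNAs inside 1 gene it was -0.956 (exact permutation p = 0.0476). Long circles called at 24 h numbered 7, or 4 with DESeq2, and 2 to 7 when 1 library was left out. At 48 h they numbered 5, or 2 with DESeq2 and 3 among circRNAs above 0 in all 8 libraries, and 2 to 5 when 1 library was left out. At 72 h they numbered 8, or 4 with DESeq2, 5 without TMM and 5 at a span of at least 50000 bases, and 2 to 9 when 1 library was left out. Of the 20 calls, 6 held in every alternative and 14 were ended by leaving out at least 1 library. The count of 0 against host rows held in every alternative run for it, all of them limma fits with the same limit. Circles with 1 count over both 0 h libraries have wide counting intervals. Nothing ties the column letters to the replicate numbers or to a shared animal or day. The differences between a and b correlated between times by -0.0247 to 0.0368 over 1574 circRNAs. With the letter as a replicate block, added after seeing the data, 6, 4 and 7 long circles were called at 24, 48 and 72 h, all among the calls without it, and 0 of 150 against host rows; the calls not made were Strbp at 24 h (edgeR adjusted p 0.0621), Cwf19l2 at 48 h (0.0595) and Ifi211/Ifi205 at 72 h (0.0633).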

Other observations

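Some long circles were counted in genes whose row stayed under 1 FPKM in all 8 libraries, a limit chosen after the values were seen. This held for 60 of the 246 long circles with a host row (24.4%) and for 216 of 1484 shorter ones (14.6%). The 60 lay in 28 hosts and had a median total of 4.5 counts, beside 28.5 for long circles in hosts above the limit. Only 3 of them had counts in every library. The Kcnh5 circle of 40091 bases had 18, 19, 27, 22, 20, 19, 18 and 27 counts, from 0 h a to 72 h b. A second Kcnh5 circle, of 66877 bases, had 8, 10, 7, 9, 14, 14, 9 and 5. The Asxl3 circle of 59543 bases had 6, 21, 20, 14, 7, 5, 3 and 3. Together the 60 circles held 0.388% to 0.680% of all circRNA counts per library. Long circles were also found outside protein-coding genes: 13 of the 72 without a host lay inside another RefSeq gene, among them a pair with 176 and 127 counts in Lncpint, a long noncoding RNA, and 1 with 106 counts in the pseudogene Nlrp5-ps.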
